A study of Drosophila melanogaster with 36 samples.

Results

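The genes described here are 9 genes of Drosophila melanogaster blood cells (hemocytes) and basement membrane, taken by name out of 17606 genes in a count table of larval brain RNA. They are the prophenoloxidases PPO1, PPO2 and PPO3, the collagen IV chains vkg and Col4a1, the collagen-binding protein SPARC, the hemocyte genes Hml and NimC1, and the matrix peroxidase Pxn. All 9 passed the filter on low counts and were tested among 12167 genes. They were taken as a named list, with no threshold on a measured value. The list was chosen with earlier results of these data known.

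Brains of wandering L3 larvae raised at 25 °C were profiled by polyA mRNA sequencing in 6 genotypes, in both sexes, with 3 libraries in each of the 12 groups. The genotypes, spelled as in the labels, were yw, Set21, H3.3WTH3.2HWT, H3.3WTH3.2K36R, H3.3CtrlH3.2HWT and H3.3K36RH3.2HWT. Set2 is the enzyme for trimethylation of lysine 36 of histone H3, and K36R names a histone in which that lysine is replaced by arginine, in H3.2, the H3 deposited during replication, or in H3.3, the variant deposited outside it. Within each sex, the control of H3.3WTH3.2K36R was H3.3WTH3.2HWT, that of H3.3K36RH3.2HWT was H3.3CtrlH3.2HWT, and that of Set21 was yw. The study describes its controls as matched in genetic background. The labels give the genotype of a library and no further allele, transgene, line or number of pooled brains, so other differences between a mutant stock and its control cannot be told apart from the mutation. Nothing in the labels says that the libraries of a group came from separate cultures, so the p-values measure the spread between these libraries, which may be technical.

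Library totals ran from 82.5 to 143.8 M reads counted in genes (median 103.0 M). Set2, checked first, stood at 27.8 to 33.3 CPM (a gene's reads divided by the scaled library total in M) in the Set21 libraries and at 160 to 200 CPM in those of the other genotypes. His3.3A, 1 of the genes that encode H3.3, stood at 60.2 to 73.0 CPM in H3.3CtrlH3.2HWT and H3.3K36RH3.2HWT and at 239 to 391 CPM in the other genotypes, so it did not separate that mutant from its control. H3.2 genes give no such check here. The neuronal gene elav had group means between 895 and 1070 CPM and the glial gene repo between 104 and 125 CPM, the defining markers of this tissue. Hml, NimC1 and the prophenoloxidase genes were present at low levels in every group, at no more than 24.1 CPM in any library.

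Hemocytes circulate in the larval body fluid and also settle on tissues. Plasmatocytes, the phagocytes, carry surface receptors such as NimC1 and eater and make Hemolectin (Hml), a clotting protein. Crystal cells store PPO1 and PPO2, the enzymes that start melanin formation at wounds, and lamellocytes, which appear mostly after parasitoid attack, are known for PPO3. The larval brain is wrapped in a basement membrane, the neural lamella, whose collagen IV is built from the chains encoded by Col4a1 and vkg. Fat body, hemocytes and glia are known sources of such matrix proteins. SPARC binds collagen IV and Pxn crosslinks it.

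Across the 36 libraries Pxn was the most abundant member by reads, with a median of 78.6 CPM (lowest 50.6, highest 90.7), and NimC1 the least abundant, with a median of 0.74 CPM (lowest 0.0184, highest 1.94). Per length of annotated exons the order changed. SPARC, a short gene, stood highest in the 10 groups outside Set21, with group means of 24.5 to 40.6 CPM per kb there against 9.96 to 13.8 CPM per kb for Pxn over all groups. In Set21 the mean of Col4a1, 25.8 CPM per kb in females and 26.8 in males, passed that of SPARC, at 22.1 and 20.1 CPM per kb. NimC1 had the lowest mean per kb in every group except the males and females of H3.3WTH3.2K36R, where PPO1 was lowest at 0.0232 and 0.0229 CPM per kb.

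The members ranged from steady to unsteady between libraries. The coefficient of variation between the 3 libraries of a group had a median over groups of 3.96% for SPARC, 6.49% for Pxn and 12% for PPO3, against 21% for Col4a1, 28.4% for PPO2, 30.8% for vkg, 38.4% for NimC1, 48.4% for Hml and 59.2% for PPO1. Among all genes tested, the dispersion of PPO1 ranked at the 94.4th percentile and that of Hml at the 93.7th. That of PPO3 ranked at 60.6, that of Pxn at 55.4 and that of SPARC at 34.1. When the 12 groups were put in order of their mean level, neighbouring groups overlapped at all 11 steps for Hml and vkg, and at all but 1 for PPO1, PPO2, PPO3, Col4a1, NimC1 and Pxn. SPARC had 4 steps without overlap.

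**Figure D1:**
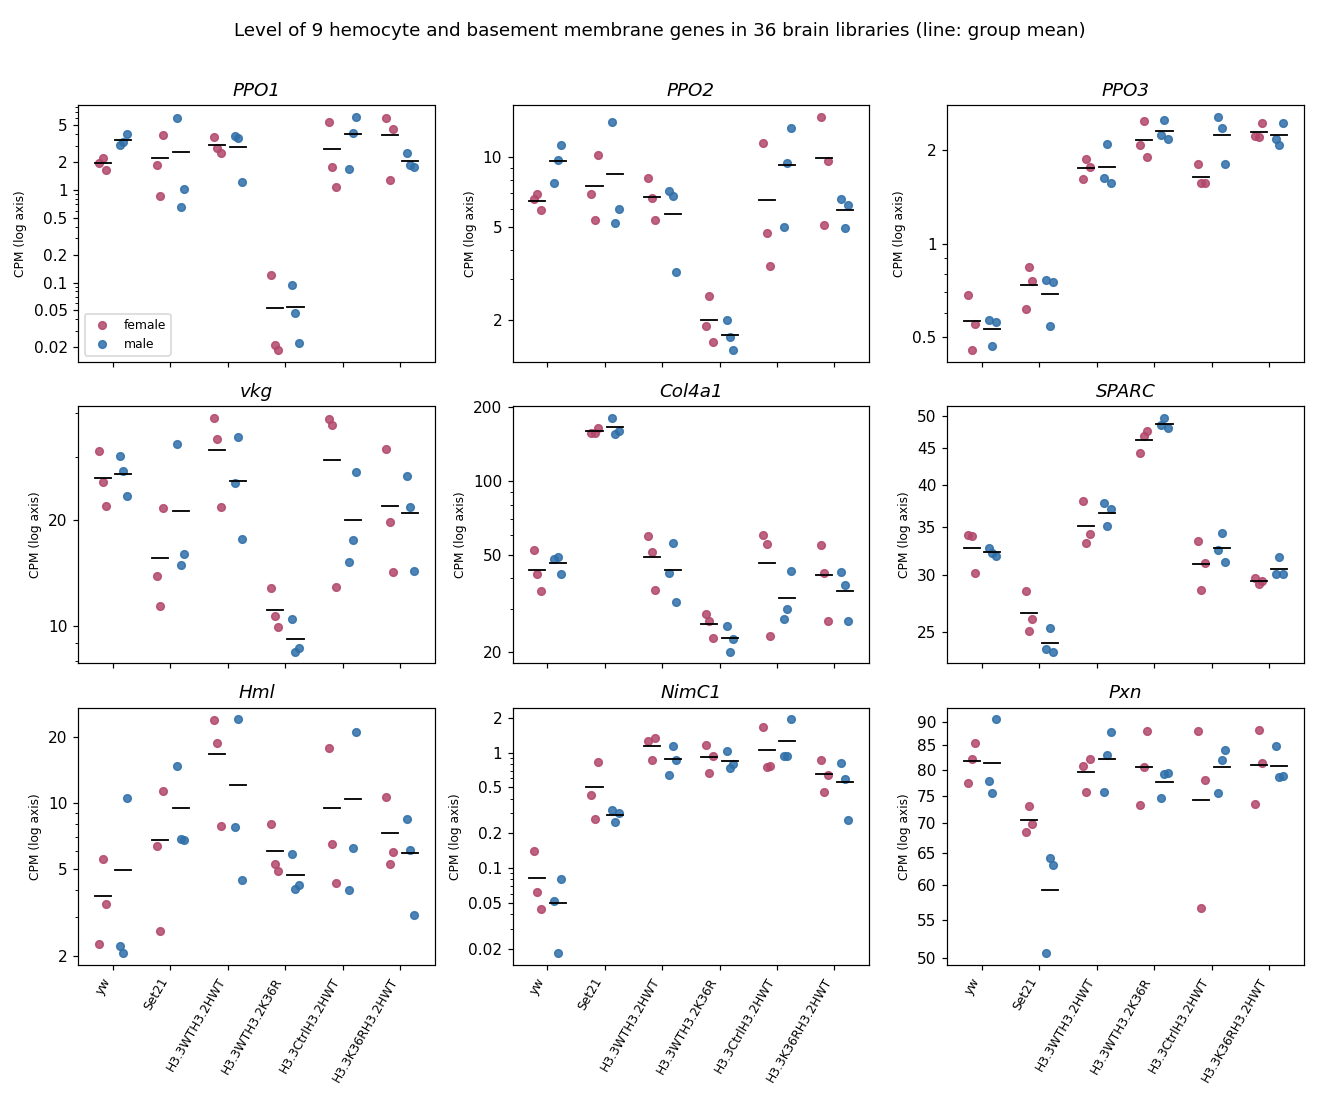
Level of each member in CPM (log axis) by genotype and sex, 1 point per library and a line at the group mean. PPO1 lies between 0.0185 and 0.121 CPM in H3.3WTH3.2K36R, Col4a1 between 155 and 180 CPM in Set21, and PPO3 and NimC1 are low in yw.

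Replacing lysine 36 in H3.2 went with lower transcript levels of both collagen IV chains and of the prophenoloxidases PPO1 and PPO2, though not of PPO3, in both sexes. In males and in females, PPO1, PPO2, vkg and Col4a1 fell and SPARC rose, while PPO3, Hml, NimC1 and Pxn did not pass the test in either sex. That is 1 member higher and 4 lower of 9 in each sex. Of all genes tested, 12.3% were called higher and 13.1% lower in males, and 11.1% higher and 13.7% lower in females. The libraries of 6 members did not overlap between mutant and control in either sex, against 38.3% of all genes in males and 37.5% in females. The median log2 fold change of the members was -0.93 in males and -0.91 in females, where that of all genes was 0.003 and -0.001. As the list was chosen with earlier results known, these contrasts with all genes are descriptions and no test of the list. Calls are edgeR quasi-likelihood tests with a Benjamini-Hochberg adjusted p under 0.05 over all genes tested, and the adjusted p values below come from that fit.

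PPO1 showed the largest change of the 9 in this mutant. Its levels were 0.0932, 0.0471 and 0.0224 CPM in the males of H3.3WTH3.2K36R against 3.88, 3.63 and 1.23 CPM in their controls. In females they were 0.121, 0.0213 and 0.0185 CPM against 3.73, 2.86 and 2.53 CPM. The groups did not overlap, and every control library stood far above every mutant library. The counts behind the mutant values were 16 reads in all 3 male libraries and 18 in the females, against 1033 and 924 in the controls, and 3 of the 36 libraries, all of this mutant, held no more than 3 reads. The log2 fold change was -5.67 ± 0.97 (SE) in males (adjusted p = 5.5e-05) and -5.73 ± 0.96 in females (adjusted p = 4.8e-05). Outside this genotype the other 30 libraries held between 0.648 and 6.25 CPM.

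PPO2, the crystal cell partner of PPO1, fell less. Males of the mutant had 1.99, 1.69 and 1.48 CPM against 7.19, 6.80 and 3.2 CPM. In females the levels were 1.88, 2.53 and 1.60 CPM against 8.14, 6.70 and 5.39 CPM. The groups did not overlap in either sex. The change was -1.74 ± 0.45 in males (adjusted p = 0.0042) and -1.76 ± 0.44 in females (adjusted p = 0.0038), a fold of 3.34 and 3.38 where PPO1 changed by 50.9 and 53.2. PPO3, the lamellocyte enzyme, had 2.24, 2.50 and 2.17 CPM in mutant males against 1.63, 2.09 and 1.57 CPM. In females it had 2.08, 2.47 and 1.90 CPM against 1.61, 1.88 and 1.77 CPM. Every mutant library was above every control library in both sexes, but the difference, 0.38 ± 0.16 and 0.29 ± 0.16, did not pass (adjusted p = 0.081 and 0.19). Without H3.3WTH3.2HWT male 2, the male value was 0.52 (adjusted p = 0.038).

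Read for read, PPO2 exceeded PPO1 by 1.85 to 3.99 times in the 24 libraries of yw and of the H3.3CtrlH3.2HWT, H3.3K36RH3.2HWT and H3.3WTH3.2HWT genotypes. In the 6 libraries of H3.3WTH3.2K36R the ratio was 15.5 to 118 and in Set21 2.35 to 8.05. The ratio of PPO1 to Hml reads was 0.00379 to 0.016 in the mutant, below the 0.151 to 1.60 of those 24 libraries. These ratios were chosen after the levels had been seen and are given as a description. With fewer than 20 reads per group, the mutant side of both ratios carries a large counting error.

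Both collagen chains fell in this mutant, though not by the same amount. vkg stood at 10.5, 8.49 and 8.70 CPM in mutant males against 25.3, 34.2 and 17.7 CPM. Mutant females had 12.8, 10.7 and 9.94 CPM against 38.7, 33.7 and 21.6 CPM. Its change was -1.48 ± 0.37 (adjusted p = 0.0034) and -1.49 ± 0.37 (adjusted p = 0.0032), with no overlap between groups. Col4a1 had 25.7, 20.1 and 22.7 CPM in mutant males against 42.0, 56.0 and 32.2 CPM. In females it had 28.6, 26.8 and 22.9 CPM against 59.7, 51.5 and 36 CPM. The groups did not overlap. Its change of -0.93 ± 0.27 (adjusted p = 0.011) and -0.91 ± 0.27 (adjusted p = 0.013) lost its call without H3.3WTH3.2HWT male 2 (-0.71, adjusted p = 0.089), without H3.3WTH3.2HWT female 1 (-0.74, adjusted p = 0.074) and without H3.3WTH3.2K36R female 3 (-0.83, adjusted p = 0.063).

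SPARC, the collagen-binding protein, rose. Its levels were 48.5, 49.6 and 48.1 CPM in mutant males against 37.8, 35.1 and 37 CPM. In females they were 44.4, 46.8 and 47.5 CPM against 38.0, 33.3 and 34.2 CPM. These 6 libraries were the highest of the 36, and the increase exceeded the spread between libraries, at 0.41 ± 0.056 in males (adjusted p = 2e-06) and 0.40 ± 0.056 in females (adjusted p = 4.8e-06). Pxn gave no call, and the 95% interval of its difference lay between -0.30 and 0.14 on the log2 scale in males and between -0.20 and 0.24 in females.

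Hml and NimC1, the plasmatocyte genes, gave no call. Hml was at 5.82, 4.05 and 4.22 CPM in mutant males against 7.80, 24.1 and 4.45 CPM. Mutant females had 8.04, 5.26 and 4.87 CPM against 23.8, 18.7 and 7.84 CPM. The control libraries ranged over several fold, and the change of -1.37 ± 0.70 and -1.47 ± 0.69 had adjusted p values of 0.16 and 0.12. In females, where the numbered libraries of mutant and control deviated together, the fit with the replicate number as a block on these 6 libraries gave -1.36 with an adjusted p of 0.0042, and the 6 libraries alone gave -1.46 with 0.033. NimC1 had group means of 0.854 against 0.883 CPM in males and 0.920 against 1.15 CPM in females.

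Other hemocyte genes give the setting for these values. As above, 12.3% of all genes were called higher and 13.1% lower in males, and 11.1% and 13.7% in females. Of 10 further hemocyte markers, ush rose (0.34 in males and 0.27 in females) and lz, the Runt-domain factor of crystal cells that is also used in the eye disc, fell (-0.93, adjusted p = 0.043, and -1.28, adjusted p = 0.0058). The median log2 fold change of the list was -0.80 in males and -0.61 in females. The other genes of the list did not pass in either sex, among them the phagocytic receptor eater (-1.12 and -1.08), the GATA factor srp (-0.98 and -0.60) and the surface protein He (-1.56 and -2.09, adjusted p = 0.19 and 0.081). No gene of the list was at 0 throughout a group, and 9 of 10 had reads in every library of the mutant males. Their summed level was 157 to 169 CPM in mutant males against 149 to 152 in controls, and 152 to 159 against 141 to 154 in females. Most of that sum was crq, at 79.4 to 88.6 CPM on average in these groups, which did not pass (0.10 and 0.07). Of 6 lamellocyte markers ItgaPS4, an integrin alpha chain, rose in both sexes (0.86 and 0.92) and atilla was at -0.01 and -0.31 without passing. Whether fewer hemocytes on the brain or less RNA per cell lay behind a lower value cannot be told apart in whole-tissue RNA, here or below.

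Genes of neighbouring tissues were called as well, beside 12.3% of all genes called higher and 13.1% lower in males. In females the background was 11.1% higher and 13.7% lower. Of 7 fat body genes, apolpp, which encodes lipid carrier proteins, fell in males (-0.65, adjusted p = 5.4e-08) and none passed in females (median of the list -1.42 and -0.49). The summed fat body level was 527 to 796 CPM against 832 to 1310 in males and 898 to 1150 against 1030 to 1180 in females. The larval serum protein gene Lsp2 ran from 8.54 to 111 CPM within the control males alone. Of 4 eye disc genes 2 fell in each sex, ato in both (-0.66 and -0.84), and of 5 ring gland genes measured 1 fell in males and 3 in females, nvd in both (-1.07 and -1.60). The neural stem cell genes mira (-0.39 and -0.45) and dpn (-0.42 and -0.50) fell, 2 of 4 of that list in males and 3 of 4 in females. Of 7 glial genes 1 rose and 1 fell in males and 1 fell in females, with moody at 0.38 in males and nrv2 at -0.19 in both sexes. No gene passed among 5 neuronal, 5 muscle and 4 salivary gland genes. The part of these tissues in the fall of vkg, Col4a1, PPO1 and PPO2 was not tested.

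The other matrix lists had members called in both directions. The background of all genes was again 12.3% higher and 13.1% lower in males, and 11.1% and 13.7% in females. Of 8 other basement membrane components, the perlecan gene trol rose in males (0.34) and LanB1, the laminin beta chain, rose in females (0.20), while wb, a laminin alpha chain, fell in females (-0.16). Among 9 genes of collagen processing, secretion and turnover, of which 8 were tested, 5 rose and 1 fell in males and 2 rose in females. Loxl1, a lysyl oxidase, rose by 0.94 and 0.74 and Plod, the lysyl hydroxylase of collagen, by 0.11 and 0.13. The fall in males was Tango1, a collagen export factor (-0.07). Of 6 matrix receptors the integrin alpha chain gene mew rose (0.20) and Dg, dystroglycan, fell (-0.12) in males, and Dg (-0.10) and if, an integrin alpha chain (-0.29), fell in females. Of 9 genes of the melanization cascade, 8 tested, 4 rose and 1 fell in males and 6 rose in females. They included the serpin Spn77Ba (0.64 and 0.80) and the protease Sp7, which acts upstream of prophenoloxidase (0.44 in both sexes).

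Loss of Set2 gave another pattern, with the collagen chains parting. In both sexes Col4a1 and NimC1 rose and SPARC fell, and Pxn fell in males. Counted by sex, 4 of 9 members were called in males, 2 higher and 2 lower, and 3 of 9 in females, 2 higher and 1 lower. Of all genes tested, 44.9% were called in males and 42.4% in females, so the share of members called is near the background. The libraries of 4 members in males and 5 in females did not overlap, against 51.5% and 55.5% of all genes. The median log2 fold change of the members was -0.18 and 0.22.

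Col4a1 stood at 180, 155 and 160 CPM in Set21 males against 48.0, 48.8 and 41.9 CPM in yw. Females had 156, 157 and 164 CPM against 52.2, 41.8 and 35.6 CPM. The Set21 libraries lay far above all other 30 libraries, whose highest was 60.4 CPM. The change was 1.84 ± 0.27 (adjusted p = 2.2e-06) and 1.88 ± 0.27 (adjusted p = 1.9e-06), a fold of 3.57 and 3.69. vkg, its partner in the collagen trimer, was at 32.7, 14.9 and 16 CPM in Set21 males against 30.1, 27.5 and 23.3 CPM. In females it was at 13.9, 11.4 and 21.5 CPM against 31.3, 25.6 and 21.9 CPM. These differences, -0.35 ± 0.36 and -0.75 ± 0.36, did not pass (adjusted p = 0.45 and 0.094). In females the groups did not overlap, and fitted on these 6 libraries alone the change was -0.74 (adjusted p = 0.015). It was -1.05 without Set21 female 3 (adjusted p = 0.045).

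vkg and Col4a1 lie next to each other on arm 2L and are transcribed in opposite directions from adjacent starts. In the 24 libraries outside Set21 and H3.3WTH3.2K36R, Col4a1 had 1.49 to 2.15 times the reads of vkg. The ratio was 2.24 to 2.61 in the 6 libraries of H3.3WTH3.2K36R and 5.51 to 13.7 in the 6 of Set21, with no overlap between the 3 sets. The ratio was chosen after the values had been seen, and no test is given. The next tested genes beyond the pair changed little in Set21. SelT, on the far side of vkg, gave -0.01 in males and 0.00 in females. CG31650, on the far side of Col4a1, rose by 0.21 and 0.25 (adjusted p = 7.9e-06 and 6.1e-07).

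**Figure D2:**
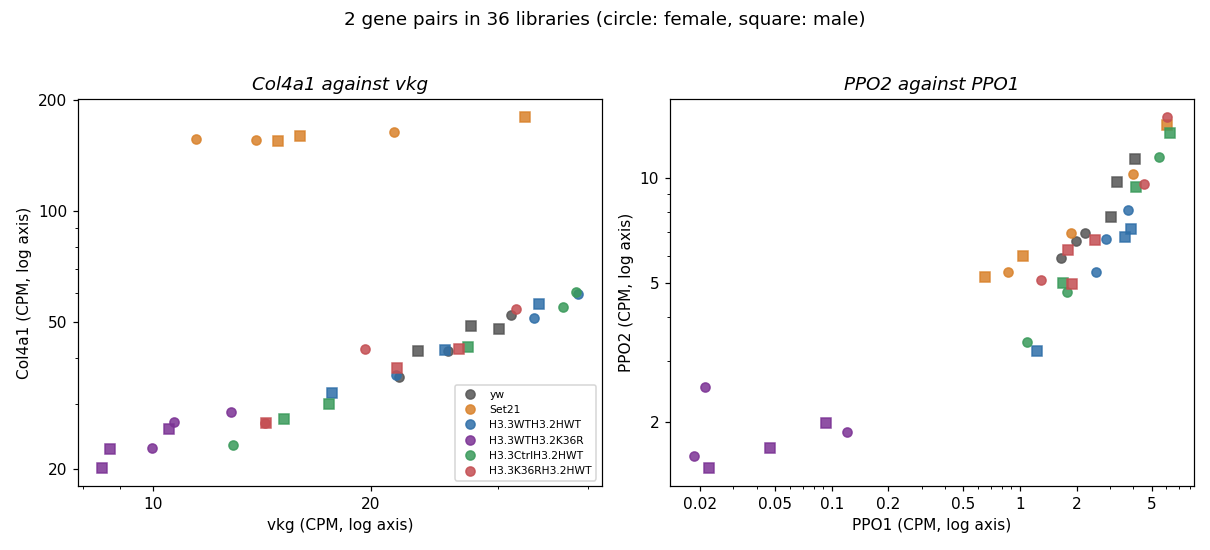
Left, Col4a1 against vkg, and right, PPO2 against PPO1, both in CPM on log axes, 1 point per library, coloured by genotype, with circles for females and squares for males. The Set21 libraries leave the common line on the left, with 5.51 to 13.7 Col4a1 reads per vkg read. The H3.3WTH3.2K36R libraries stand at 2.24 to 2.61 there and leave the common line on the right.

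NimC1, a phagocytosis receptor of plasmatocytes, was nearly silent in yw. Its levels were 0.321, 0.251 and 0.302 CPM in Set21 males against 0.0518, 0.0184 and 0.0801 CPM. In females they were 0.429, 0.265 and 0.826 CPM against 0.141, 0.0619 and 0.0441 CPM. The change was 2.53 ± 0.56 (adjusted p = 0.00051) and 2.59 ± 0.52 (adjusted p = 0.00019), resting on 16 and 24 reads over the yw libraries. The 30 libraries outside yw held 0.251 to 1.94 CPM. Among the groups outside yw, the Set21 means, 0.291 CPM in males and 0.507 in females, were the lowest. The nearby family member NimC2 did not pass in Set21 (1.45 and 1.01, adjusted p = 0.11 and 0.25).

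SPARC had 23.7, 25.3 and 23.5 CPM in Set21 males against 32.8, 32.2 and 31.9 CPM, and 28.5, 25.1 and 26.1 CPM against 34.1, 34 and 30.2 CPM in females. It fell by 0.42 ± 0.057 (adjusted p = 5.8e-07) and by 0.30 ± 0.056 (adjusted p = 8e-05), with no overlap. Pxn had 50.6, 64.3 and 63.0 CPM in Set21 males against 77.7, 75.4 and 90.7 CPM, a change of -0.45 ± 0.11 (adjusted p = 0.00091). In females it had 68.5, 73.1 and 69.9 CPM against 77.4, 82.1 and 85.4 CPM, which did not overlap but did not pass either (-0.21 ± 0.11, adjusted p = 0.11). On the 6 female libraries alone the adjusted p was 0.0026. Exons of Pxn share bases with CG16986 on the other strand and with lncRNA:CR45660 on the same strand, and the labels do not say how such reads were counted, so its level is uncertain.

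PPO1, PPO2, PPO3 and Hml did not pass in Set21. PPO1 had 6.04, 0.648 and 1.04 CPM in males against 3.04, 3.3 and 4.08 CPM. It had 1.87, 0.860 and 3.99 CPM in females against 1.98, 2.22 and 1.65 CPM. One Set21 male library, replicate 1, was the highest of its group for PPO1, PPO2, vkg, Col4a1 and Hml, and without it PPO1 was at -2.02 (adjusted p = 0.021) rather than -0.43. Hml had 14.7, 6.84 and 6.77 CPM in males against 2.23, 2.06 and 10.5 CPM. Without yw male 3, the high control, the male difference was 2.14 (adjusted p = 0.03) rather than 0.94 ± 0.69. PPO3 differed by 0.37 ± 0.17 and 0.39 ± 0.17 (adjusted p = 0.084 and 0.067), and passed without Set21 male 2 (0.52, adjusted p = 0.021), without Set21 female 1 (0.51, adjusted p = 0.03) or without yw female 1 (0.56, adjusted p = 0.02).

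The other lists gave these calls in Set21, where 44.9% of all genes tested were called in males and 42.4% in females. Of the 10 further hemocyte markers 2 rose in each sex, ush (0.59 and 0.54) and the receptor Pvr (0.77 and 0.79), and none fell. The list's median log2 fold change was 0.64 and 0.58. eater was at 0.98 and 0.66 and srp at 1.55 and 0.89, neither of them passing. The summed level of the list was 141 to 157 CPM against 113 to 117 in males and 142 to 149 against 116 to 119 in females. Of 6 lamellocyte markers, the integrin genes ItgaPS4 (1.73 and 2.05) and mys (0.17 and 0.26) rose and atilla, the defining surface marker, did not pass (-0.51 and -0.59). Of 8 other basement membrane genes 1 rose and 1 fell in males and 3 rose and 1 fell in females. Mp, a multiplexin collagen, fell (-0.51 and -0.53), LanB2, the laminin gamma chain, rose (0.18 and 0.22), and Ndg, nidogen, rose in females (1.16). Of the 8 tested genes of collagen processing and turnover 3 rose and none fell in each sex, among them Loxl1 (0.89 and 0.85), the matrix protease Mmp1 (0.93 and 1.31) and Tango1 (0.12 and 0.09). Of 6 matrix receptors 1 rose and 1 fell in males and 2 rose and 3 fell in females, with Dg lower in both (-0.30 and -0.26). Of the 8 tested melanization genes 3 rose in each sex, Sp7 (0.51 and 0.46) and Spn77Ba (0.45 and 0.54) in both.

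Some tissue markers were called here too, beside the same 44.9% of all genes in males and 42.4% in females. A few calls in a list are therefore no result about that tissue. Of 7 fat body genes apolpp fell in males (-0.33) and 3 fell in females, apolpp (-0.59) and Lsp1alpha (-4.79) among them. The summed level was 684 to 760 CPM against 800 to 931 in males and 579 to 704 against 862 to 1090 in females. Of 7 glial genes 1 rose and 2 fell in males and 1 rose and 3 fell in females, with moody up (0.28 and 0.39) and Eaat1 down (-0.42 and -0.68). Of 5 muscle genes Mhc, which encodes muscle myosin, fell (-1.08 and -1.91). The neuronal genes brp (-0.38 and -0.25) and Syt1 (-0.31 and -0.30) fell, 3 of 5 of that list in males and 2 in females. Of 4 neural stem cell genes 2 fell in males and 3 in females, mira among them (-0.29 and -0.25). Of 5 ring gland genes 3 rose in males, sad among them (1.33), and none passed in females. The eye disc gene sev rose (0.29 and 0.47), alone of 4, and no salivary gland gene passed. Their part in the changes of Col4a1, SPARC and Pxn was not tested.

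Replacing lysine 36 in H3.3 gave no call among the members in either sex, where 9.96% of all genes were called in males and 6.35% in females. At an unadjusted p under 0.05 there was 1 member in each sex. The share of all genes at that unadjusted threshold was not worked out, so this count is no result about the members. NimC1 was lower in every mutant male library than in any control, with 0.822, 0.597 and 0.262 CPM against 0.928, 0.942 and 1.94 CPM (-1.18 ± 0.43, adjusted p = 0.084 in edgeR and 0.048 in DESeq2). PPO3 was higher in every mutant female library, with 2.22, 2.21 and 2.45 CPM against 1.80, 1.57 and 1.56 CPM (0.48 ± 0.16, adjusted p = 0.078 in edgeR and 0.029 in DESeq2). For the other members the libraries overlapped in both sexes. Over all genes, 30.6% in males and 19.2% in females had libraries that did not overlap. The intervals were wide for PPO1 (-2.36 to 0.42 in males, -0.87 to 1.88 in females) and Hml (-2.24 to 0.60 and -1.80 to 1.01), and narrow for SPARC (-0.21 to 0.02 and -0.19 to 0.04). Of the other lists, lz fell in males (-1.07, adjusted p = 0.035), Timp, the metalloprotease inhibitor, fell in both sexes (-0.99 and -0.71), and so did wb (-0.34 and -0.22), each alone of its list. mew fell in females (-0.18), alone of the matrix receptors. No lamellocyte or melanization gene passed. The fat body gene apolpp rose (0.32 and 0.30), alone of 7. In males Mdr65 of the glial list (0.51) and nSyb of the neuronal list (0.24) rose and gl of the eye disc list (-1.24) fell. Sgs3 (-4.29) and Sgs8 (-4.93) of the salivary gland list also fell in males. The summed level of that list was low, at 0.535 to 1.13 CPM in the mutant males. In the control males it ran from 2.43 to 26 CPM with a median of 3.3, so 1 control library stood far above the others. No gene of the neural stem cell, ring gland or muscle lists passed in either sex.

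**Figure D3:**
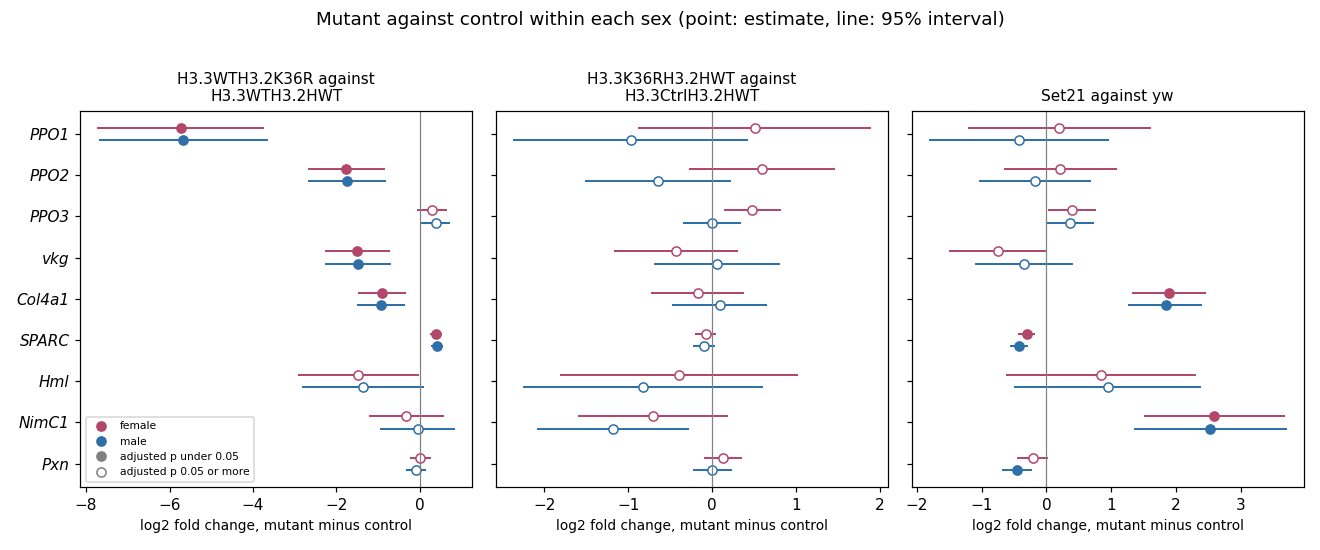
Log2 fold change of each member, mutant minus control, in males and females of the 3 mutant comparisons, with its 95% interval. Filled points passed an adjusted p of 0.05, 5 per sex in H3.3WTH3.2K36R, none in H3.3K36RH3.2HWT, and 4 in males and 3 in females of Set21. The horizontal scales differ between panels.

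Averaging the sexes, a contrast chosen after the data had been seen, added Hml (-1.42 ± 0.49, adjusted p = 0.022) and PPO3 (0.34 ± 0.11, adjusted p = 0.018) in H3.3WTH3.2K36R, PPO3 in Set21 (0.38 ± 0.12, adjusted p = 0.0091) and NimC1 in H3.3K36RH3.2HWT (-0.94 ± 0.30, adjusted p = 0.033). The background rose with it, to 39.9%, 56.5% and 16.5% of all genes called.

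The mutants' responses were then compared with each other, as differences of the fold changes averaged over the sexes. Between H3.2K36R and Set2, 8 of 9 members differed, 2 higher and 6 lower in the H3.2K36R response, where 41.4% of all genes differed. Col4a1 differed by -2.78 ± 0.27 (adjusted p = 1.9e-09) and SPARC by 0.77 ± 0.056 (adjusted p = 7.7e-12), each being called in opposite directions in the separate comparisons. PPO1 differed by -5.59 ± 0.84 (adjusted p = 3.9e-06), NimC1 by -2.75 ± 0.49 (adjusted p = 4.2e-05), PPO2 by -1.77 ± 0.43 (adjusted p = 0.0014) and Hml by -2.32 ± 0.69 (adjusted p = 0.0083). These responses have different controls. NimC1 means in males and females were 0.0501 and 0.0823 CPM in yw, against 0.883 and 1.15 CPM in H3.3WTH3.2HWT. Hml means were 4.93 and 3.77 against 12.1 and 16.8 CPM. By level, NimC1 was higher in H3.3WTH3.2K36R (0.854 and 0.920 CPM) than in Set21 (0.291 and 0.507 CPM). vkg (-0.94 ± 0.36, adjusted p = 0.037) lost its call in 12 of 28 alternatives and Pxn (0.30 ± 0.11, adjusted p = 0.023) in 4 of 28. Pxn lost it without H3.3WTH3.2HWT male 1, H3.3WTH3.2K36R female 3, Set21 male 1 or yw male 3, with adjusted p values up to 0.069. vkg lost it with a robust dispersion and without H3.3WTH3.2HWT female 1, female 2 or male 2, H3.3WTH3.2K36R female 2, female 3, male 2 or male 3, Set21 female 3 or male 1, or yw female 3 or male 3, with adjusted p values up to 0.098. PPO3 was at -0.04 (adjusted p = 0.87). Between H3.2K36R and H3.3K36R, SPARC was higher and PPO1, PPO2, vkg and Col4a1 were lower in the H3.2K36R response, 5 of 9 members against 28.7% of all genes. Between Set2 and H3.3K36R, Col4a1 (1.90 ± 0.27) and NimC1 (3.50 ± 0.49) were higher and SPARC (-0.28 ± 0.056) and Pxn (-0.40 ± 0.11) lower in the Set2 response, 4 of 9 members against 42.6% of all genes. The controls differ here too, and the mean level of NimC1 was lower in Set21 than in H3.3K36RH3.2HWT (0.560 CPM in males and 0.653 in females).

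No member passed in any of the 6 genotypes when males were compared with females, where 0.600% of all genes were called in H3.3WTH3.2HWT, 2.73% in yw, 2.99% in H3.3K36RH3.2HWT, 5.20% in H3.3WTH3.2K36R, 5.27% in H3.3CtrlH3.2HWT and 13.5% in Set21. At an unadjusted p under 0.05 edgeR gave 1 member in H3.3CtrlH3.2HWT (PPO3) and 2 in Set21 (SPARC and Pxn). Neither for these counts nor for the unadjusted ones below was the share of all genes worked out, so they are no result about the members. In H3.3CtrlH3.2HWT, PPO3 was called higher in males without male 3, and Col4a1 lower without female 3. No test of a difference between the male and the female response was passed by a member, in edgeR or in DESeq2, against 0.0658% of all genes in H3.2K36R, 0.181% in H3.3K36R and 3.43% in Set2. At an unadjusted p under 0.05 there were 2 in H3.3K36R, PPO2 (-1.24 ± 0.59) and PPO3 (-0.48 ± 0.23), and none in the others. For PPO1 the interval of the difference between the sexes ran from -3.13 to 3.26 in H3.2K36R, so a difference within those bounds was not detectable there.

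The controls differed among themselves. In H3.3WTH3.2HWT, PPO3 was 3.3-fold higher than in yw in males (1.72 ± 0.17, adjusted p = 6.1e-09) and 3.11-fold in females (1.64 ± 0.17, adjusted p = 2e-08). NimC1 was 17.5-fold higher in males (4.13 ± 0.55, adjusted p = 1.4e-06) and 13.7-fold in females (3.77 ± 0.52, adjusted p = 2.7e-06). SPARC was also higher in males (0.18 ± 0.056, adjusted p = 0.017) and Hml in females (2.16 ± 0.71, adjusted p = 0.031), and both of these lost the call in 4 of 10 alternatives. These are 3 members higher and none lower in each sex, where 14.2% of all genes were called higher in males and 10.9% in females. The libraries of 4 members did not overlap in each sex, against 40.7% and 36.8% of all genes. SPARC lost its call without H3.3WTH3.2HWT male 1 (adjusted p = 0.073), H3.3WTH3.2HWT male 3 (0.063), yw male 3 (0.057) or yw male 2 (0.05). Hml lost it without yw female 1 (0.12), H3.3WTH3.2HWT female 1 (0.11), yw female 3 (0.089) or H3.3WTH3.2HWT female 2 (0.066). NimC2, beside NimC1, was higher in males as well (3.07, adjusted p = 0.0025) and at 1.82 in females (adjusted p = 0.061). Of the 10 further hemocyte markers 4 were higher and none lower in each sex (median of the list 0.53 in males and 0.92 in females). Of 7 fat body genes 3 were higher in males, none in females and none lower (medians 3.55 and 0.85). The glial list had medians of -0.19 and -0.13. H3.3WTH3.2HWT is also the control of H3.3WTH3.2K36R.

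PPO3 fell into separate ranges by genotype. The 12 libraries of yw and Set21 held 0.454 to 0.843 CPM and the 24 others 1.56 to 2.56 CPM. No member passed between H3.3CtrlH3.2HWT and H3.3WTH3.2HWT in either sex, where 6.44% and 4.26% of all genes were called. At an unadjusted p under 0.05 there were 2 members in males, PPO3 (0.34) and SPARC (-0.16), and 1 in females, SPARC (-0.18, adjusted p = 0.074), which DESeq2 called lower and edgeR also without H3.3CtrlH3.2HWT female 1. Again the share of all genes at the unadjusted threshold was not worked out. These contrasts share control libraries with the mutant comparisons.

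Over the 36 libraries, PPO1 and PPO2 resembled each other more than any other tested gene with a mean of at least 1 CPM (Pearson r of log2 CPM 0.93, of 8616 genes). The next 2 for PPO1 were lncRNA:cherub (0.92), a long noncoding RNA studied in neural stem cells, and gsb-n (0.92), and for PPO2 cas (0.83), a neuroblast timing factor, and CG3788 (0.82). Hml was most like eater (0.89), Had2 (0.78) and srp (0.78). PPO3 was most like lncRNA:CR44042 (0.97), w (0.96) and Yeti (0.96), NimC1 like CG18278 (0.92), Sting (0.91) and rtet (0.91), and Col4a1 like T3dh (0.92), FBgn0034496 (0.92) and Kmn1 (0.91). SPARC was most like bero (0.94), CtsL1 (0.92) and lncRNA:CR45223 (0.92), vkg like CG17896 (0.87), CG1607 (0.86) and blot (0.86), and Pxn like cpo (0.87), CG12402 (0.85) and tutl (0.85). The libraries share genotypes, so such values are largely differences between groups.

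With the group means taken out, a smaller circle of genes still varied together from library to library. The correlation of deviations was 0.91 for vkg and Col4a1 and 0.88 for PPO1 and PPO2. Hml went with eater (0.90), He (0.84) and srp (0.77), but not with lz (0.09), and ran against the scavenger receptor gene crq (-0.42). crq also ran against PPO1 and PPO2 (both -0.42), vkg (-0.65) and Col4a1 (-0.59), and with SPARC (0.46) and Pxn (0.48). PPO1 and PPO2 went with Hml (0.71 and 0.73) and vkg (0.71 and 0.71). vkg and Col4a1 went with atilla (0.78 and 0.73) and Mhc (0.63 and 0.74) and against elav (-0.59 and -0.60). They also went with the glial gene moody (0.57 and 0.55), but not with repo (0.08 and -0.04). The ring gland gene nvd went with Hml (0.61) and PPO2 (0.50), while repo was at -0.36 with Hml. PPO3, SPARC and Pxn stood outside, with values between -0.28 and 0.14 with PPO1 and PPO2. The likeness of PPO1 to cherub shrank to 0.17, that of PPO3 to w to -0.14 and that of Col4a1 to T3dh to 0.02, while vkg kept 0.83 with CG17896 and Pxn 0.76 with cpo. These values, over 36 libraries in 12 groups, are descriptions.

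**Figure D4:**
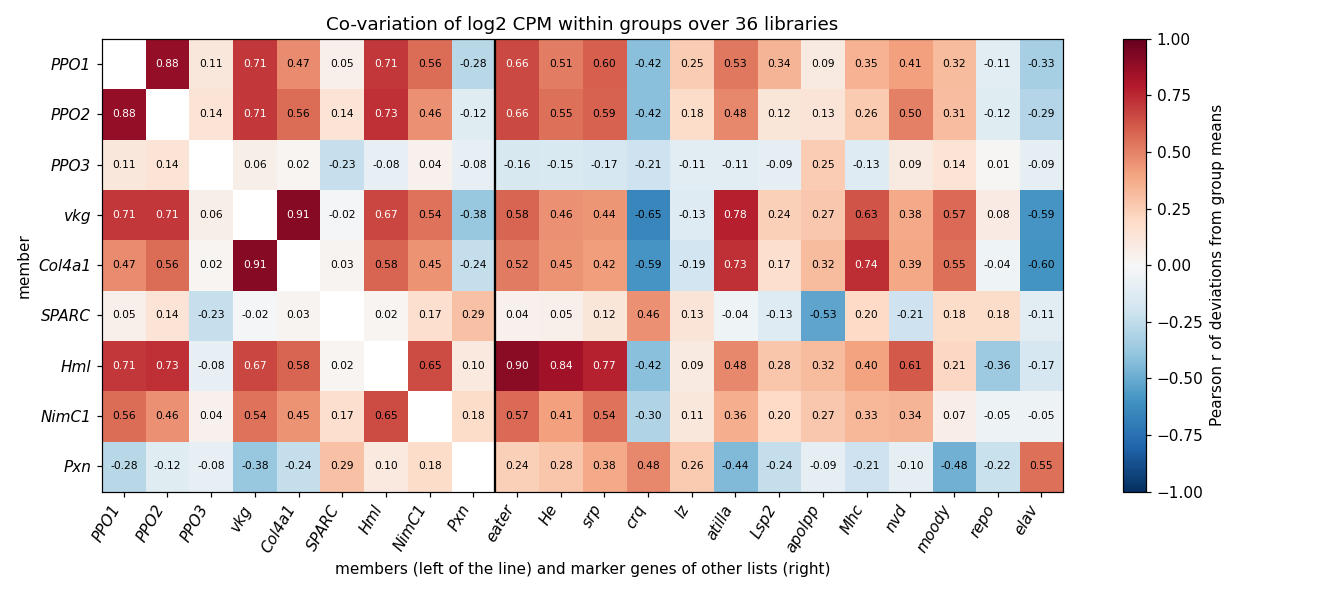
Pearson r of deviations of log2 CPM from the group means over 36 libraries, for each member (rows) with the other members (left of the line) and with marker genes of other lists (right). PPO1, PPO2, vkg, Col4a1, Hml and NimC1 share positive values of 0.45 to 0.91, while PPO3 shows values between -0.23 and 0.25.

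On the genome the members lie on 4 arms, PPO1, PPO2 and PPO3 on 2R, vkg, Col4a1 and NimC1 on 2L, Hml and Pxn on 3L and SPARC on 3R, and none is on the X. The tested genes on either side of PPO1 did not fall with it in H3.3WTH3.2K36R. Elk, whose span overlaps PPO1 without shared exon bases, was at 0.36 in males (adjusted p = 0.014) and 0.31 in females (adjusted p = 0.032), and dpr13 at 0.23 and 0.31 (adjusted p = 0.0027 and 1e-04). Beside PPO3, CG9890 and l(2)k09913 were at -0.09 and -0.01 between H3.3WTH3.2HWT and yw males, where PPO3 was at 1.72. He lies next to NimC1 and was at 1.60 between these controls (adjusted p = 0.17) in males and 2.50 (adjusted p = 0.048) in females. The neighbours were looked up after the values of the members had been seen.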

How the data were processed

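PolyA-selected, stranded, paired-end libraries (read length 100 bp) were counted by the authors. The deposited table holds raw read counts per gene, and the tools were STAR 2.7.2a and Subread 2.0.3, per the submitters' processing notes. Not given in the sources used here: build, annotation, and the settings of alignment and counting, strand included. Even numbers made up 79.2 to 85.1% of the values between 1 and 4 in a library. Reads are therefore not independent molecules, and their number understates the counting error. Symbols, arms and exon lengths came from Ensembl release 115 and matched 17527 of 17606 genes. No column was left unused.

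Counts were fitted with edgeR 4.0.16 (R 4.3.3, limma 3.58.1): TMM scaling (factors 0.97 to 1.055), filterByExpr with a minimum count of 10, 12 group means, 24 residual degrees of freedom, quasi-likelihood tests and Benjamini-Hochberg adjustment over 12167 genes, called at 0.05. The common biological coefficient of variation was 0.118. CPM values use TMM-scaled totals. The fit was also run on counts simulated with known changes from its own dispersions. Such counts share the assumptions of the model, so that run checks the code and not the calls in these data. Between libraries of the same group, chi-square per gene ran from 8.19 to 96.1, so none repeated another. Alternatives were DESeq2 1.42.0, other scaling and filters, 6 libraries alone, a replicate block and leaving out each library. A robust dispersion and the mean of the sexes were added after the data had been seen.

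The replicate numbers come from the labels, which do not say what a number shares. In H3.2K36R females alone did every same-numbered pair deviate together with a correlation over 0.1 (0.105 to 0.34), so the blocked value is given there.

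The members and the 14 other lists (further hemocyte, lamellocyte, basement membrane, matrix receptor, collagen processing and turnover, melanization, fat body, glia, neuron, neural stem cell, ring gland, eye disc, muscle and salivary gland genes) were chosen with earlier results of these data known. The rule for naming took, from each list, up to 2 called genes with the smallest p per mutant comparison, the defining markers, and the 3 genes most like each member. Some of the called genes it took are counted above without being named, and some are named in a comparison other than the one that selected them. He, crq and Lsp2, and the genomic neighbours, were named after their values had been seen. The ring gland gene phm was not analysed here.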

Additional observations from a re-analysis of the deposited data

How the results depend on the processing

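The 17 member values called in the 6 mutant comparisons kept their direction in 204 alternatives and their call in 201, the 3 losses being those of Col4a1 given with its values. Of 64 uncalled member values, those of the sex differences of the responses included, 876 alternatives gave 15 calls and 83 opposite signs called in neither. The replicate block was fitted on the 6 libraries compared. All genes called in H3.2K36R males numbered 3091 from 36 libraries, 2302 from the 6 alone and 1872 with the replicate block. In H3.3K36R males these counts were 1212, 1487 and 731, and in H3.3K36R females 772, 320 and 178. In H3.2K36R females the block went the other way, with 3018, 2258 and 3246. The members called in the 6 mutant comparisons were the same with the block as from the 6 libraries alone. Both added Hml in H3.2K36R females, and vkg and Pxn in Set2 females, where 3 members were then lower. The block brought PPO1 in Set2 females to -0.03 and PPO3 in H3.3K36R males to 0, neither called. The mean of the sexes gave 2 members higher in H3.2K36R (PPO3, SPARC), 1 lower in H3.3K36R (NimC1) and 2 lower in Set2 (SPARC, Pxn). DESeq2 called 1 member lower in H3.3K36R males (NimC1), 1 higher in H3.3K36R females (PPO3) and 1 lower between the H3.3CtrlH3.2HWT and H3.3WTH3.2HWT females (SPARC). It called 37 genes (8 in edgeR) and 43 (22) for the sex difference of the H3.2K36R and H3.3K36R responses, and it and its size factors put Pxn in H3.3K36R males at 0. Leaving out single libraries gave 0 to 21 and 9 to 27 genes for those sex differences, and 746 to 990 in H3.3K36R males. Member counts then ran from 1 to 2 higher in H3.2K36R males, 1 to 2 lower in Set2 females and 1 to 2 higher in the H3.2K36R minus Set2 response. They ran from 0 to 1, higher and lower, between the sexes in H3.3CtrlH3.2HWT and from 0 to 1 lower between the control females. Uncalled values that changed sign, called in neither direction except where given above, had these ranges. In H3.3K36R males they were -0.05 to 0.03 for Pxn, -0.15 to 0.10 for PPO3, -0.15 to 0.35 for vkg, -0.06 to 0.30 for Col4a1 and -1.21 to 0.20 for Hml. In H3.3K36R females they were -0.49 to 0.07 for Col4a1, -0.76 to 0.43 for Hml and -0.03 to 0.27 for Pxn. The sex difference of that response gave -0.08 to 0.03 for SPARC, -0.27 to 0.03 for Pxn and -1.26 to 0.59 for Hml. In H3.2K36R, Pxn in females ran from -0.05 to 0.08 and NimC1 in males from -0.24 to 0.18. Its sex difference gave -0.64 to 1.51 for PPO1, -0.27 to 0.21 for PPO2, -0.21 to 0.27 for vkg, -0.05 to 0.05 for SPARC, -0.30 to 1.08 for Hml and -0.20 to 0.21 for Col4a1. In Set2, PPO1 ran from -0.51 to 0.60 in females and -2.02 to 0.05 in males, and PPO2 from -0.06 to 0.42 and -0.76 to 0.09. The sex difference there gave -0.19 to 0.12 for PPO3, -0.37 to 1.29 for Hml, -2.23 to 0.10 for PPO1, -0.70 to 0.49 for NimC1, -0.05 to 0.71 for vkg and -0.21 to 0.08 for Col4a1. The cause of these changes was not tested. Depth limits PPO1 in H3.3WTH3.2K36R and NimC1 in yw, where single libraries held as few as 2 reads.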
